A study of Mus musculus with 4 samples.

Results

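The 8 genes described here encode the CLK (Clk1, Clk2, Clk3, Clk4), DYRK (Dyrk1a, Dyrk1b) and SRPK (Srpk1, Srpk2) kinases that phosphorylate SR splicing proteins, and were chosen by name from the 35147 genes of the deposited table. Each symbol had 1 row, and all 8 passed the filter on low values, a mean of at least 1 FPKM (fragments per kilobase of gene, scaled by library) over the libraries. The samples were RNA that came down with anti-4E-T or with anti-IgG control antibody from the lysed V-SVZ (ventricular-subventricular zone) of wild-type mice of the CD1 strain, aged P7/P8 (postnatal day 7 or 8). This zone is the germinal layer along the lateral ventricles of the forebrain, and 4E-T is a translational repressor of cytoplasmic P-bodies that binds the cap-binding protein eIF4E. Each of 2 numbered experiments gave 1 library per antibody, so n = 2 libraries per group. Whole tissue was lysed, so RNA of all its cell types was mixed, and more cells of a type, more of a transcript per cell and more of it bound to the antibody cannot be told apart. Total RNA of the lysates was not analysed here. The labels do not say whether the experiments used separate animals, so p-values measure the spread between these libraries, which may be technical.

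SR proteins carry a tail rich in arginine and serine, the RS domain, and their place in the cell and their activity depend on its phosphorylation. SRPK kinases act mainly in the cytoplasm, where phosphorylation of the RS domain lets the carrier transportin-SR bring SR proteins into the nucleus. CLK kinases act in the nucleus, where further phosphorylation releases SR proteins from storage in nuclear speckles for splicing. DYRK1A and DYRK1B are relatives of the CLKs with a wider set of substrates, and DYRK1A is sensitive to gene dosage in the growing brain. CLK transcripts are themselves regulated by splicing: part of the Clk1 and Clk4 RNA is known to stay in the nucleus with introns unremoved. Gene-level FPKM do not separate such RNA from the finished mRNA.

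RNAs of all 4 CLK genes and both SRPK genes were more abundant with 4E-T than with IgG, at 2.30 to 2.58 times the mean FPKM of IgG for the CLKs and 2.34 to 2.50 times for the SRPKs. For the DYRK genes the ratio was 1.71 (Dyrk1b) and 1.21 (Dyrk1a). For 7 members both 4E-T libraries lay above both IgG libraries, which 32.6% of the 17651 tested genes also did. In limma with antibody as the only term, 0 members passed at an adjusted p under 0.05, where 0.00567% of all tested genes were called higher and 0% lower. Before adjustment, 6 members had p under 0.05 in the same fit, the CLKs and SRPKs, all higher. Of all tested genes, 11.2% had such a p and were higher. A limma fit that also held the experiment number, as a block, called 7 members higher and 0 lower, against 17.5% of all tested genes called higher and 4.44% called lower. The authors' deposited table gave 6 members an adjusted p under 0.05, all higher. Of its 22881 genes that had an adjusted p, 10.7% were likewise called higher. Without a block, leaving out IgG replicate 1 brought Clk1, Clk2 and Clk4 past the threshold, with 4.86% of all tested genes called higher. Leaving out IgG replicate 2 brought Clk2, Clk3, Dyrk1b, Srpk1 and Srpk2, with 13.8% of all genes, and leaving out either 4E-T library brought 0 members, with 0.0113%. The fit with the block has 1 residual degree of freedom and takes its spread largely from other genes, so its p-values say little of how a single gene varied. On simulated data, whose settings differ from these libraries, a larger share of its calls was false than the threshold allows.

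**Figure D1:**
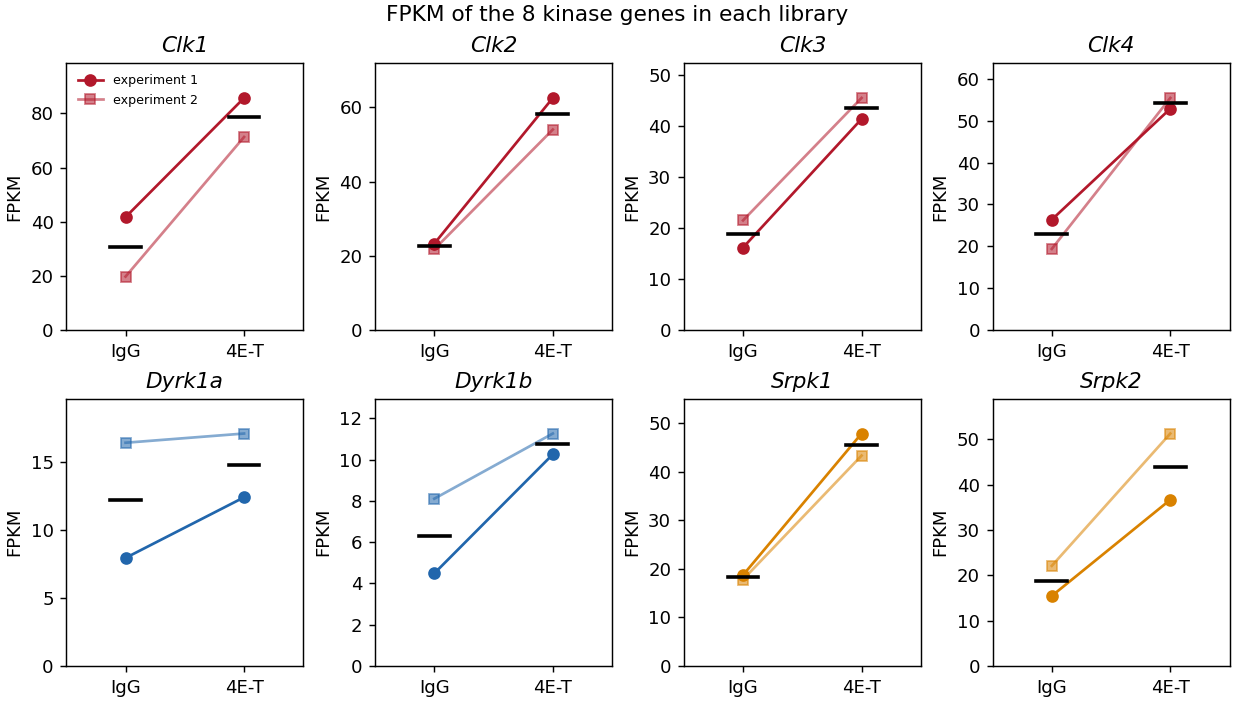
FPKM of each kinase gene (vertical axis, from 0, with its own scale per gene) in the IgG and 4E-T libraries. Circles and squares are the libraries of experiments 1 and 2, thin lines join the libraries of an experiment and black bars are group means; every gene except Dyrk1a has both 4E-T points above both IgG points.

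Clk1 (ENSMUSG00000026034.17; chromosome 1, 58411988 to 58424088 in RefSeq's GRCm38.p6, the assembly also called mm10) encodes the founding mammalian member of the family. In experiment 1 it had 41.7 FPKM with IgG and 85.6 with 4E-T, and in experiment 2 it had 19.8 with IgG and 71.2 with 4E-T. The experiment number is also the replicate number below. The 4E-T libraries lay above the IgG libraries, but the IgG libraries differed from each other more than the 4E-T libraries did. The mean was 30.8 ± 15.5 FPKM for IgG and 78.4 ± 10.2 for 4E-T (SD, n = 2 here and below). The log2 fold change of FPKM + 1 was 1.41, with a limma adjusted p of 7.17e-05 with the block (SE 0.30) and 0.285 without it (SE 0.50). Its size rested on which IgG library was used: it was 1.93 without IgG replicate 1 and 0.89 without IgG replicate 2. Within experiment 1 the 4E-T library had 2.05 times the FPKM of its IgG partner, and within experiment 2 it had 3.60 times.

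Clk1 was the CLK gene whose groups overlapped once reads were scaled by library total. Read counts recovered from the FPKM were 4286 and 2094 in the IgG and 9797 and 7931 in the 4E-T libraries, replicates 1 and 2 in turn. As a share of all gene reads (CPM), this was 297 and 84.5 CPM for IgG and 426 and 276 CPM for 4E-T. On that scale the groups overlapped, since IgG replicate 1 lay above 4E-T replicate 2. The share was 1.43 times higher with 4E-T in experiment 1 (95% interval 1.38 to 1.49) and 3.26 times higher in experiment 2 (3.11 to 3.43). These intervals are exact binomial ones and, here and below, cover counting error only. Clk1 stood at a log2 fold change of 1.18 in limma-voom on the recovered reads with the block (adjusted p = 2.84e-05).

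Clk2 (ENSMUSG00000068917.12; chromosome 3, 89164795 to 89177087), a nuclear kinase also known for a part in liver metabolism, had 23.3 and 21.8 FPKM in IgG replicates 1 and 2. In 4E-T replicates 1 and 2 it had 62.5 and 54.0 FPKM. The IgG values were close to each other, and both 4E-T values were well above them. The mean was 22.6 ± 1.08 FPKM for IgG and 58.3 ± 6.01 for 4E-T, and the log2 fold change was 1.33 (limma adjusted p = 0.000157 with the block, SE 0.30, and 0.249 without). The experiments gave similar FPKM ratios, 2.68 in experiment 1 and 2.48 in experiment 2. In shares of gene reads these were 1.87 (95% interval 1.77 to 1.98) and 2.25 (2.12 to 2.39). RefSeq places Gm45927 across the whole of Clk2, so reads of the pair could not be told apart by position alone.

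Clk3 (ENSMUSG00000032316.8; chromosome 9, 57750621 to 57766235), whose product is abundant in testis as well as present in brain, gave 16.2 and 21.5 FPKM with IgG. The 4E-T libraries had 41.3 and 45.4 FPKM. By FPKM replicate 2 was the higher library in both groups, but by share of gene reads replicate 1 was, at 97.9 against 77.8 CPM with IgG and 175 against 149 CPM with 4E-T. The groups did not overlap on either scale. The log2 fold change was 1.17 (limma adjusted p = 0.00081 with the block, SE 0.29, and 0.286 without). The FPKM ratio was 2.55 in experiment 1 and 2.11 in experiment 2.

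Clk4 (ENSMUSG00000020385.16; chromosome 11, 51263114 to 51281770), the closest relative of Clk1 in the family, gave 26.4 and 19.4 FPKM with IgG, against 52.8 and 55.4 with 4E-T. IgG replicate 1 was the higher IgG library, as for Clk1, and both 4E-T libraries had about the same level. The log2 fold change was 1.22 (limma adjusted p = 0.00057 with the block, SE 0.29, and 0.282 without). The FPKM ratio was 2.003 in experiment 1 and 2.853 in experiment 2, so Clk1 and Clk4 had their larger ratio in experiment 2 while Clk2 and Clk3 had theirs in experiment 1. This division turned with the scale: by share of gene reads all 4 CLK genes had the larger ratio in experiment 2, with 1.78 and 1.92 for Clk3 and 1.398 and 2.59 for Clk4. The FPKM of Clk1 over that of Clk4, a ratio within a library that no library scale can change, was 1.58 and 1.02 in IgG and 1.62 and 1.29 in 4E-T. These ranges overlapped, while within experiments 1 and 2 the ratio with 4E-T was 1.02 and 1.3 times that with IgG. An exact test of 2 libraries against 2 cannot pass here, and the difference was not tested otherwise. RefSeq places 549 bases of BC049762, a protein-coding gene, across Clk4.

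Of the 8 members, 7 had entries in RefSeq's table of start sites (GRCm38.p6), with 12 windows of 250 bases before a start in all. The windows of Clk4 and Clk2 are shown because each holds a palindromic motif, in capitals: TGACGTCA, the cyclic AMP response element, in Clk4 and CACGTG, the E-box, in Clk2. The motifs were chosen after the windows had been seen, both strands were searched, and neither overlaps another motif searched here.
Clk4, plus strand, chr11:51262864-51263113: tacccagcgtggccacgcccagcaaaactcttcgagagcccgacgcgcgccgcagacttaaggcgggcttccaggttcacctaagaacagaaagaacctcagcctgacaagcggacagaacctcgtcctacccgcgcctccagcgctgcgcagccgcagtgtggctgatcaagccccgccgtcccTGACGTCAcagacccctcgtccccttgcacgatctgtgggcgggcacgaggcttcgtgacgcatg
Clk2, plus strand, chr3:89164545-89164794: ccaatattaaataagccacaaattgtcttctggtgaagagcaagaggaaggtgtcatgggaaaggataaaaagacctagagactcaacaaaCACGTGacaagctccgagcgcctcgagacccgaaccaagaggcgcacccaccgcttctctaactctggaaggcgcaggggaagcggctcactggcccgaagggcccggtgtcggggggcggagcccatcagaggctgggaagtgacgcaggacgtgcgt

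TGACGTCA stood in 1 of the 12 windows of members, that of Clk4, and in 1.55% of all 32851 such windows. CACGTG stood in 2 of the 12, those of Clk2 and Dyrk1b, and in 6.02% of all windows. CCGGAAG, bound by ETS factors, stood in 1 of the 12, that of Clk3, and in 6.91% of all windows, and the NRF1 motif in 0 of the 12 and in 0.782%. The GC box GGGCGG stood in 9 of the 12 and in 32.7% of all windows, and CCAAT in 4 of the 12 and in 33.8%. No motif was common to every window of the CLK and SRPK genes. These matches describe the DNA letters and are no measure of binding.

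Srpk1 (ENSMUSG00000004865.15; chromosome 17, 28587648 to 28622528), the widely expressed SR protein kinase of the cytoplasm, gave 18.7 and 17.8 FPKM with IgG, against 47.9 and 43.3 with 4E-T. By FPKM the libraries of a group were close to each other and the groups did not overlap. The mean was 18.3 ± 0.651 FPKM for IgG and 45.6 ± 3.21 for 4E-T, and the log2 fold change was 1.27 (limma adjusted p = 0.000239 with the block, SE 0.29, and 0.249 without). The FPKM ratios of experiments 1 and 2 were 2.56 and 2.43. In shares of gene reads the ratios were 1.79 (95% interval 1.70 to 1.88) and 2.21 (2.10 to 2.33). The shares themselves were farther apart within groups, at 136 and 77.4 CPM with IgG and 243 and 171 CPM with 4E-T.

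Srpk2 (ENSMUSG00000062604.11; chromosome 5, 23503356 to 23684642), the SR protein kinase prominent in brain, gave 15.4 and 22.1 FPKM with IgG, against 36.6 and 51.2 with 4E-T. By FPKM replicate 2 was the higher library in both groups, by nearly the same factor: 1.43 between the IgG and 1.398 between the 4E-T libraries. The FPKM ratios between antibodies were 2.37 in experiment 1 and 2.32 in experiment 2. By share of gene reads Srpk2 stood at 147 and 126 CPM with IgG and 243 and 265 CPM with 4E-T, so replicate 1 was the higher IgG library. On that scale the ratios were 1.66 (95% interval 1.58 to 1.74) and 2.11 (2.02 to 2.20). The log2 fold change was 1.19 (limma adjusted p = 0.00069 with the block, SE 0.29, and 0.2996 without). Srpk1 over Srpk2 was 1.21 and 0.807 in IgG and 1.31 and 0.846 in 4E-T, so this ratio was close between antibodies within an experiment and differed between experiments. RefSeq places 880 bases of Kmt2e across the Srpk2 gene, and the sources used here do not give the strand setting of the counting.

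Dyrk1a (ENSMUSG00000022897.14; chromosome 16, 94569947 to 94695519) did not pass in any fit tried. It gave 7.94 and 16.4 FPKM with IgG, against 12.4 and 17.1 with 4E-T, so the groups overlapped. The log2 fold change was 0.32, with a limma adjusted p of 0.443 with the block (SE 0.27) and 0.855 without. It was -0.16 without IgG replicate 1, 0.80 without IgG replicate 2, 0.54 without 4E-T replicate 1 and 0.10 without 4E-T replicate 2. In shares of gene reads Dyrk1a was nearly level, at 66.9 and 82.8 CPM for IgG and 72.9 and 78.3 CPM for 4E-T. The share ratio was 1.09 in experiment 1 (95% interval 1.01 to 1.18) and 0.946 in experiment 2 (0.890 to 1.004).

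Dyrk1b (ENSMUSG00000002409.18; chromosome 7, 28179447 to 28197910), a relative known for holding cells in quiescence, was the member with the fewest reads, 240 to 653 per library. It gave 4.49 and 8.10 FPKM with IgG, against 10.3 and 11.3 with 4E-T. The groups did not overlap, but the IgG libraries were farther apart than the 4E-T libraries. The log2 fold change was 0.73, and the call depended on the fit: limma adjusted p was 0.0215 with the block (SE 0.25), 0.435 without it, 0.0732 on recovered reads with the block and 0.136 after quantile normalization with the block. It was 0.37 without IgG replicate 1. The share ratio was 1.60 in experiment 1 (95% interval 1.37 to 1.86) and 1.262 in experiment 2 (1.12 to 1.43).

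**Figure D2:**
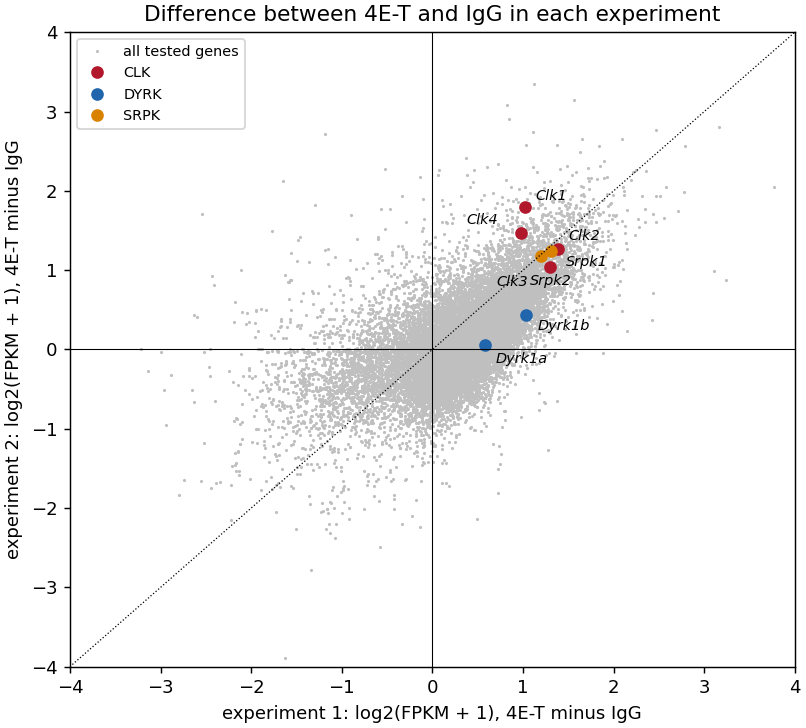
Difference in log2(FPKM + 1) between 4E-T and IgG within experiment 1 (horizontal) and experiment 2 (vertical), for all tested genes (grey) and the kinase genes (coloured by family); the dotted line marks equal differences. The CLK and SRPK genes lie at 0.98 to 1.38 in experiment 1 and 1.05 to 1.80 in experiment 2, and Dyrk1a lies at 0.58 and 0.06.

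Across all tested genes the median difference was 0.32 in experiment 1 and 0.08 in experiment 2, and all 8 members lay above 0 in both experiments, as did 49.4% of all tested genes. The median log2 fold change of the 8 members was 1.20, against 0.18 for all tested genes. Clk1 exceeded 98.0% of all tested genes in log2 fold change, Srpk1 96.8%, Clk3 95.4%, Dyrk1b 84.5% and Dyrk1a 60.9%. After quantile normalization, which moves the median of all genes from 0.18 to -0.02, 6 members passed with the block, against 10.4% of all genes called higher. These were the CLKs and SRPKs, with log2 fold changes of 0.77 (Clk3) to 1.02 (Clk1), while Dyrk1a was at -0.036. In that fit Clk1 passed only narrowly (limma adjusted p = 0.0435). The same 6 members passed in limma-voom on recovered reads with the block, at 0.92 (Clk3) to 1.18 (Clk1), against 13.2% of all genes called higher and 11.5% called lower, and 0 members were lower. That fit without the block called 0 members.

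On the share scale the CLK genes together took 640 and 283 CPM with IgG and 994 and 718 CPM with 4E-T, and the groups did not overlap. The SRPK genes took 283 and 203 CPM with IgG and 486 and 436 CPM with 4E-T, again without overlap. The DYRK genes took 83.6 and 101 CPM with IgG and 99.5 and 101 CPM with 4E-T, with overlapping groups. By share of gene reads, 6 members had both 4E-T libraries above both IgG libraries, as did 22.9% of all tested genes, and Clk1 and Dyrk1a did not.

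Ratios to Dyrk1a within each library do not depend on how libraries were scaled. Clk2 had 2.94 and 1.33 times the FPKM of Dyrk1a with IgG, and 5.05 and 3.16 times with 4E-T. Srpk2 had 1.95 and 1.346 times with IgG, and 2.96 and 3.001 times with 4E-T. For Clk2, Clk3, Dyrk1b, Srpk1 and Srpk2 both 4E-T ratios lay above both IgG ratios. The share of all tested genes whose ratios to Dyrk1a did the same was not computed, so this separation has no background beside it. For Clk1 and Clk4 the ratio was higher with 4E-T within each experiment, but IgG replicate 1 lay above 4E-T replicate 2 (5.26 against 4.17 for Clk1 and 3.33 against 3.24 for Clk4). Each of the 7 ratios was higher with 4E-T within both experiments, by 1.28 times (Clk4, experiment 1) to 3.45 times (Clk1, experiment 2). That direction was fixed by the choice of reference. Dyrk1a had the lowest FPKM ratio of 4E-T to IgG of all members in both experiments, at 1.56 and 1.04. An exact two-sided permutation test of 2 libraries against 2 cannot go below p = 0.333, and no other test of the difference between Dyrk1a and the other members was made.

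By mean level, FPKM put Clk1 at the head of both groups and Dyrk1b at the foot. In IgG the order was Clk1, Clk4, Clk2, Clk3, Srpk2, Srpk1, Dyrk1a and Dyrk1b. There Clk1, Clk4 and Clk2 overlapped from neighbour to neighbour, as did Clk3, Srpk2 and Srpk1, and Dyrk1a and Dyrk1b. These runs of neighbours were not set apart: Clk1 and Clk4 overlapped Clk3 and Srpk2, and Clk2 overlapped Srpk2. Dyrk1a, at 7.94 to 16.4 FPKM, also overlapped Srpk2 and Clk3. In 4E-T the order was Clk1, Clk2, Clk4, Srpk1, Srpk2, Clk3, Dyrk1a and Dyrk1b. Clk1 lay above Clk2 in both 4E-T libraries without overlap, at 71.2 to 85.6 FPKM against 54.0 to 62.5. Clk2 and Clk4 overlapped, as did Srpk1, Srpk2 and Clk3 in turn, and both DYRK genes lay below the other members without overlap with them or with each other.

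The genes with the profile most like Clk1, by Euclidean distance between centred log2(FPKM + 1) over the 4 libraries, were Ccdc39 (0.193), Ttll3 (0.254), Prpf39 (0.263), Rgs11 (0.279) and Tmem181c-ps (0.288), of 7493 genes with a mean of at least 10 FPKM. Ccdc39, a gene for assembly of motile cilia, gave 12.7 and 6.40 FPKM with IgG and 28.6 and 20.5 with 4E-T, with IgG replicate 2 lowest as for Clk1. Prpf39, a splicing factor of the U1 snRNP, gave 28.4 and 17.4 FPKM with IgG and 65.0 and 52.5 with 4E-T. Among the kinase genes Clk4 ranked 52 in likeness to Clk1, Clk2 128, Srpk1 148, Clk3 744, Srpk2 1174 and Dyrk1a 4489. Dyrk1b, with a mean under 10 FPKM, was not ranked. Distances over 4 libraries describe likeness only.

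The substrates of these kinases include the SR proteins and their Tra2 relatives. Of 13 such genes, all tested, 10 rose and 0 fell in limma with the block (17.5% of all tested genes rose), with a median log2 fold change of 0.94 against 0.18 for all genes. On recovered reads with the block 9 rose and 0 fell (13.2% of all genes rose), and after quantile normalization with the block 8 rose and 0 fell (10.4%). Without the block 0 genes of this list or of the other lists below passed. Srsf5, an SR protein gene, gave 118 and 99.8 FPKM with IgG and 345 and 383 with 4E-T (log2 fold change 1.73; limma with the block, adjusted p = 1.09e-06; no block, 0.221). Srsf2, whose product is a marker of nuclear speckles, had a log2 fold change of 1.59. At the other end were Srsf1 at 0.54 (limma adjusted p = 0.204 with the block) and Srsf9 at 0.15 (adjusted p = 0.7997), whose groups overlapped and which was at -0.13 on recovered reads and -0.19 after quantile normalization, both with the block. Tra2b, at 0.68, did not pass either (limma adjusted p = 0.0863 with the block).

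Of 17 other RS-domain splicing factors 13 rose and 0 fell with the block, also on recovered reads, and 11 rose and 0 fell after quantile normalization with the block. The shares of all tested genes called higher in these fits were the 17.5%, 13.2% and 10.4% given above. Their median log2 fold change was 1.19. Srrm1, a splicing coactivator, stood at 2.25 and Rsrp1, a small arginine- and serine-rich protein gene, at 2.20. The RNA helicase gene Ddx23 was at 0.32 and U2af2, the large subunit of the factor that reads the polypyrimidine tract, at 0.28, and neither passed (limma adjusted p with the block 0.433 and 0.556). Srrm1 and Rsrp1 were known to be high from earlier results of these data.

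Relatives of the 8 kinases made up a list of 12 genes, of which 11 passed the filter, and 3 rose and 0 fell in limma with the block, against 2 and 0 on recovered reads and 2 and 0 after quantile normalization, each with the block and beside the same shares of all genes. Prpf4b, a kinase of the spliceosome, gave 11.8 and 10.7 FPKM with IgG and 30.5 and 34.8 with 4E-T (log2 fold change 1.46, limma with the block, adjusted p = 8.52e-06; no block, 0.206). Cdk11b, a kinase linked to transcription and splicing, stood at 1.37 (limma adjusted p = 9.74e-05 with the block). Hipk1 and Hipk4, homeodomain-interacting kinases related to the DYRKs, were at -0.06 and -0.10 (limma adjusted p = 0.916 and 0.854 with the block). Dyrk2 and Dyrk3, further members of the DYRK family, were both at 0.31, beside 0.32 for Dyrk1a. Srpk3, a further member of the SRPK family, was at 0.63, below Srpk1 and Srpk2. It passed neither in limma with the block (adjusted p = 0.0813) nor in the other fits with the block. Its level was low, at 1.92 and 0.883 FPKM with IgG and 2.67 and 2.58 with 4E-T.

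The phosphatases of the reverse reaction, their regulators and import receptors made up a list of 10 genes. Of these 2 rose and 0 fell with the block, near the 17.5% and 4.44% of all tested genes. In the other fits 1 rose and 2 fell on recovered reads with the block, and 1 rose and 3 fell after quantile normalization with the block. Their median log2 fold change was 0.09. Those that rose with the block were Ppp1r10 and Ppp1r8, nuclear regulators of protein phosphatase 1, at 1.19 and 0.77. Ppp1cb, a catalytic subunit of that phosphatase, gave 36.5 and 63.2 FPKM with IgG and 28.2 and 34.8 with 4E-T. The log2 fold change was -0.60 on FPKM + 1 (limma adjusted p = 0.137 with the block) and -0.91 on recovered reads with the block (adjusted p = 0.00158). Tnpo1, an import receptor, was at -0.25 (limma adjusted p = 0.566 with the block). With the block it was at -0.57 on recovered reads (limma-voom adjusted p = 0.0338) and -0.60 after quantile normalization (limma adjusted p = 0.0174). Tnpo3, which encodes transportin-SR, was at 0.09 (limma adjusted p = 0.887 with the block). In those other fits Tnpo3 was at -0.20 and -0.31 and passed in neither.

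Of 15 partners and substrates of DYRK kinases 3 rose and 0 fell with the block, near the share of all tested genes called higher (17.5%), 1 rose and 1 fell on recovered reads with the block, and 1 rose and 2 fell after quantile normalization with the block. The median was 0.30. Sf3b1, a core spliceosome protein gene, stood at 1.51 (limma adjusted p = 2.92e-05 with the block) and Spry2, an inhibitor of growth factor signalling, at 0.77. Dcaf7, the scaffold that holds DYRK1A to its substrates, gave 21.6 and 70.9 FPKM with IgG and 22.7 and 43.4 with 4E-T (log2 fold change -0.31, limma adjusted p = 0.517 with the block). With the block Dcaf7 was at -0.58 on recovered reads (limma-voom adjusted p = 0.0517) and -0.69 after quantile normalization (limma adjusted p = 0.00253). Ccnd2, a D-type cyclin gene, was at -0.56 (limma adjusted p = 0.196 with the block) and at -0.82 on recovered reads with the block (adjusted p = 0.0187).

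**Figure D3:**
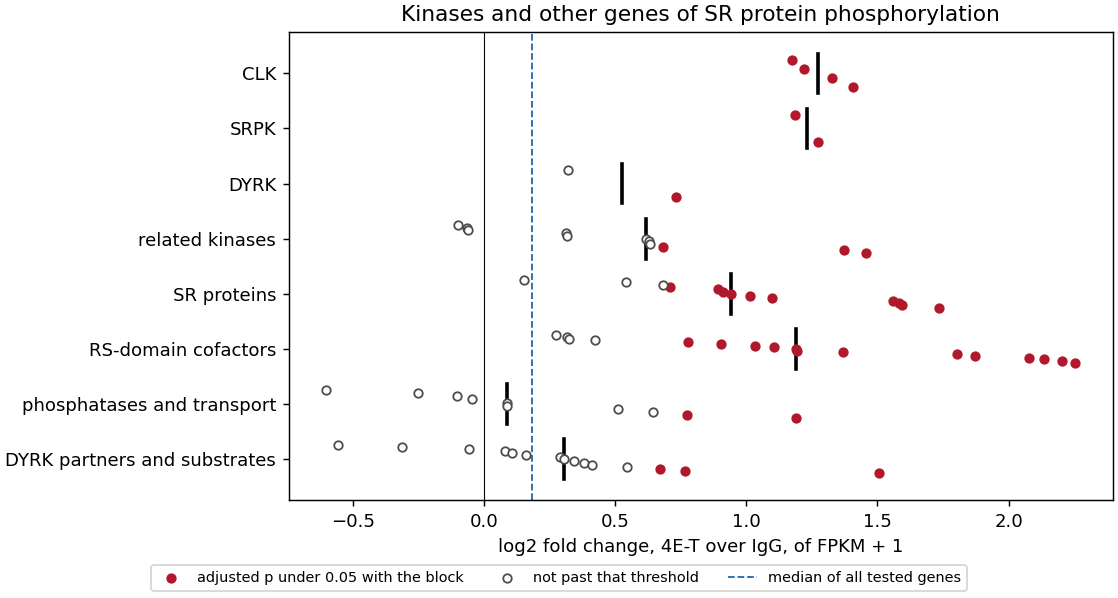
Log2 fold change of FPKM + 1 between 4E-T and IgG (horizontal) for each tested gene of the kinase families and of the lists of related genes (vertical). Filled points passed in limma with the experiment block, black bars are list medians and the dashed line is the median of all tested genes at 0.18; the CLK, SRPK and RS-domain medians lie at 1.27, 1.23 and 1.19.

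The libraries held 14421019 (IgG replicate 1) to 28749439 (4E-T replicate 2) gene reads and differed in more than the antibody. Per unit of the denominator of the FPKM, IgG replicate 2 held 1.67 times the gene reads of IgG replicate 1, and the 4E-T libraries 1.43 and 1.84 times. A library with a high value therefore gives higher FPKM for the same share of reads. Olfactory and vomeronasal receptor genes, which belong to the nose, took 0.243% of reads in IgG replicate 1 and 0.0142% to 0.0562% in the other libraries. Genes without a read numbered 77 in IgG replicate 1, though it held the fewest gene reads. They numbered 676 in IgG replicate 2, and 442 and 2689 in 4E-T replicates 1 and 2. All 14 vascular markers were detected in every library, with a summed level of 442 to 992 CPM with IgG and 266 to 319 CPM with 4E-T, and 7 of 14 fell in limma with the block (4.44% of all tested genes), 13 on recovered reads with the block (11.5%) and 1 after quantile normalization with the block (9.23%). Microglial markers (8) summed to 558 to 743 CPM with IgG and 397 to 440 CPM with 4E-T, ependymal markers (6) to 181 to 184 and 106 to 125 CPM, and oligodendrocyte markers (8) to 2442 to 3891 and 2054 to 2284 CPM. In these fits, in the same order, 1, 3 and 5 microglial markers fell and 0 rose, beside the same shares of all genes. For the ependymal list 1, 4 and 4 fell and 0 rose. Of the oligodendrocyte list 0, 1 and 3 fell, and 1 rose in each fit. Neuronal markers (8) overlapped between groups, at 1318 to 1829 and 1529 to 2111 CPM. The neuroblast and the neural stem and astroglial markers expected of the V-SVZ, 8 of each, were all detected in every library. The neuroblast list summed to 1824 to 1863 CPM with IgG and 1536 to 2004 CPM with 4E-T, and the stem and astroglial list to 2259 to 3194 CPM and 1990.2 to 2171 CPM. The part of these differences between libraries in the kinase results was not tested.

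**Figure D4:**
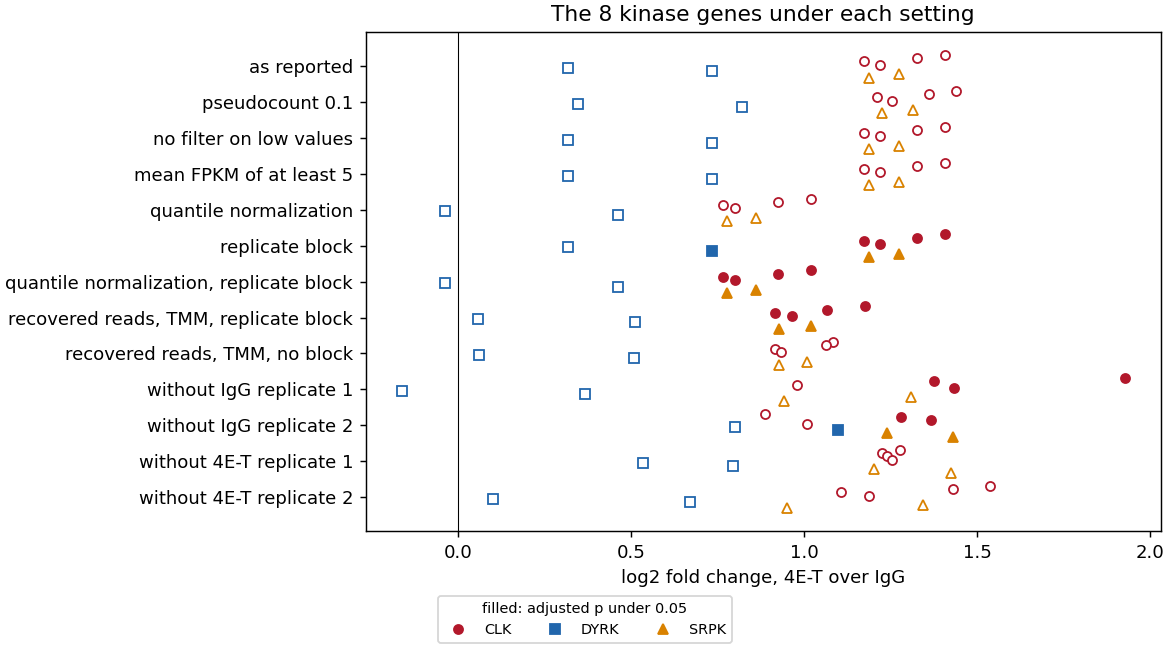
Log2 fold change between 4E-T and IgG (horizontal) of each kinase gene under each setting of the analysis (vertical); circles are CLK, triangles SRPK and squares DYRK genes, and filled symbols passed at an adjusted p under 0.05. The CLK and SRPK values stay between 0.77 and 1.93, filled under every fit with the block, while Dyrk1a goes from -0.16 to 0.80 and is open throughout.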

How the data were processed

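Precipitated V-SVZ RNA was amplified as cDNA (SMART-Seq v4) and made into Nextera XT libraries, per the labels' protocols. Among the tools in the submitters' processing notes are STAR 2.6.0c, HTSeq 0.6.1p2 and, for the comparison, DESeq2 1.26.0, beside Trim Galore 0.5.0 for reads and the build mm10. Neither annotation release nor strand setting is given in the sources used here. The deposited values of each library are FPKM. The authors also deposited their DESeq2 comparison, per the file headers, with a mean signal, log2 fold changes, a linear fold change, a Wald score and p-values.

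The 17651 genes averaging 1 FPKM or more were tested on log2(FPKM + 1) in limma 3.58.1 (R 4.3.3), with trended, robust moderation, two-sided, and Benjamini-Hochberg adjustment over all genes tested. The fold changes understate the change of low genes. Titles give the libraries of an experiment a shared number, read as a shared batch, and their deviations from group means correlated across genes (0.67, and 0.49 after quantile normalization), so values with the number as a block stand beside the others. Reads were recovered from the FPKM steps and the authors' deposited mean signal (100% of values whole within 0.001) and tested with limma-voom after scaling by trimmed mean of M-values. The fits were tested on simulated data. There the fit on FPKM with the block made more false calls than its threshold allows, and the fit without it missed most changes of the sizes simulated. The simulation did not include the differences in FPKM scale between these libraries. It also raised a small set of genes, lowered none and gave all genes the same dispersion. Its share of false calls therefore need not hold for these data. Named list genes are those 2 highest and 2 lowest in log2 fold change per list, plus Dyrk2, Dyrk3, Srpk3 and Tnpo3, added after their values were seen. Tra2b was also named outside this rule. The 5 genes most like Clk1 were taken among those with a mean FPKM of at least 10. Members and lists were chosen with earlier results of these data known.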

Additional observations from a re-analysis of the deposited data

How the results depend on the processing

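The number of kinase genes called higher was 0 without a block, also with a pseudocount of 0.1, without a filter, with a mean of at least 5 FPKM, after quantile normalization and on recovered reads. It was 7 with the experiment number as replicate block, 6 after quantile normalization with the block and 6 on recovered reads with the block. Leaving out 1 library, without a block, gave 0 to 5 (3 without IgG replicate 1, 5 without IgG replicate 2). In no setting tried was a kinase gene called lower. The cause of these shifts was not tested.

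Over all genes the counts moved with the block as well. Calls numbered 1 higher and 0 lower as reported, 3090 and 784 with the block, 1843 and 1630 after quantile normalization with the block, and 2327 and 2035 on recovered reads with the block. Without a block they were 177 and 8 with a mean of at least 5 FPKM, and 0 higher without a filter, after quantile normalization and on recovered reads. Without 1 library the range was 2 to 2441 higher and 0 to 1094 lower.

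The block left the log2 fold changes as they were and brought past the threshold Clk1 (1.41), Clk2 (1.33), Clk3 (1.17), Clk4 (1.22), Dyrk1b (0.73), Srpk1 (1.27) and Srpk2 (1.19). After quantile normalization with the block the values were 1.02 for Clk1, 0.92 for Clk2, 0.77 for Clk3, 0.80 for Clk4, 0.86 for Srpk1 and 0.78 for Srpk2. On recovered reads with the block they were 1.18, 1.07, 0.92, 0.96, 1.02 and 0.93 in the same order. Dyrk1a turned to -0.036 after quantile normalization, with and without the block, and went from -0.16 to 0.80 without 1 library. Without 1 library the others ranged from 0.89 to 1.93 for Clk1, 1.22 to 1.43 for Clk2, 0.98 to 1.37 for Clk3, 1.01 to 1.43 for Clk4, 0.37 to 1.10 for Dyrk1b, 1.20 to 1.34 for Srpk1 and 0.94 to 1.43 for Srpk2. In those fits the lone library of a group is assumed to vary like the other group. Dyrk1b had the fewest reads of the members, at 240 to 653 per library, and the part of depth in its results was not tested.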
